A study of Homo sapiens with 3 samples.

Results

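The core genes of transforming growth factor beta (TGF-beta) signalling were examined at the RNA level in cultured cells labelled as HepG2. They were 10 genes chosen by name: the ligand genes TGFB1, TGFB2 and TGFB3, the receptor genes TGFBR1, TGFBR2 and TGFBR3, and the SMAD genes SMAD2, SMAD3, SMAD4 and SMAD7. They are 10 of the 39320 gene rows on the assembled chromosomes and the mitochondrial genome in the deposited tables, and all 10 were found. The study sequenced polyadenylated RNA from HepG2, a human liver cancer cell line, in 3 libraries that are replicates of 1 group. Its genotype is given as WT, and no treatment, clone or second condition is named. Nothing states that the replicates were separate cultures, so the SD given with each value measures only the spread between these libraries, which may be technical.

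Each gene has a TPM, an FPKM and a coverage in each library. TPM, a relative transcript abundance, is scaled for gene length and sums to the same total in every library. FPKM is scaled for length and depth. Coverage is not scaled for depth, and the sources used here do not say over which bases it was averaged. Read counts are not among the values, so the sequencing depth is unknown and counting intervals could not be formed. As a relative measure of depth, the highest coverage per FPKM of any gene was taken, which was 13.3, 12.8 and 11.5 in replicates 1, 2 and 3. Mitochondrially encoded genes held between 19.9% and 20.2% of all TPM.

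The label of liver cancer cells was set beside defining markers. All 10 genes of a list of secreted hepatocyte proteins stayed under 1 TPM in all 3 libraries. ALB, APOA1, APOA2, APOB, AHSG, FGB and SERPINA1 were listed at 0, and the summed level of the list was between 0.0571 and 0.244 TPM. The highest of the list were TTR at 0.118 ± 0.0812 TPM, AFP at 0.0162 ± 0.0141 TPM and TF at 0.0106 ± 0.0092 TPM (SD, n = 3). HepG2 cells are known for secreting many of these proteins, so the label goes against these markers, and the libraries are described below as labelled HepG2. Of 6 markers of mesenchymal and stellate cells, 3 had at least 1 TPM in every library: COL1A1 at 6.93 ± 0.564 TPM, ACTA2 at 2.90 ± 0.657 TPM and PDGFRB at 2.25 ± 0.190 TPM. The rest were near 0, with DCN at 0.0477 ± 0.0223 TPM, COL3A1 at 0.0233 ± 0.0117 TPM and COL1A2 at 0.0210 ± 0.0231 TPM. That list summed to between 11.3 and 13.2 TPM. Endothelial markers summed to between 1.45 and 1.85 TPM, with VWF at 1.36 ± 0.125 TPM, CDH5 at 0.263 ± 0.0716 TPM, PECAM1 at 0.0159 ± 0.0217 TPM and KDR listed at 0. Macrophage and leukocyte markers summed to between 9.25 and 10.9 TPM, nearly all of it CD68 at 9.41 ± 0.965 TPM, with CD14 at 0.694 ± 0.134 TPM and PTPRC and LYZ listed at 0. The part of any other cell type in the levels below was not tested. In bulk RNA, fewer cells of a type and less RNA per cell cannot be told apart.

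TGF-beta ligands are secreted dimers that are held latent in the matrix until they are released. The active ligand brings together the type II receptor, encoded by TGFBR2, and the type I receptor, encoded by TGFBR1, and the type I receptor then phosphorylates SMAD2 and SMAD3. The phosphorylated SMADs join SMAD4, enter the nucleus and change transcription, and SMAD7, itself a target, inhibits the receptor. In the liver the pathway is known for restraining hepatocyte growth, for driving stellate cells to lay down matrix, and for roles in both the restraint and the spread of liver cancer.

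The promoters of the 3 ligand genes are shown because the ligands differed more in TPM than the genes of any other role. Their start regions also differ in base composition, which was part of the choice. A link between these bases and the RNA levels was not tested. These are the 120 bases before the start of 1 reference transcript per gene (MANE Select), 5′ to 3′ on the strand of the gene, from RefSeq (GRCh38.p14). Other annotated starts are not shown: TGFB3 has 2 promoter entries, and its shown bases lie inside its deposited row. The deposited row of TGFB2 begins 52 bp before the start used here. The last 52 of its shown bases, with the TATA box, thus lie inside that row. Capitals mark a TATA box (TATAAA), a GC box (GGGCGG), a half-site of the cAMP response element (CGTCA) or an E-box (CACGTG), each searched on both strands.

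TGFB1, chr19:41353923-41354042, minus strand: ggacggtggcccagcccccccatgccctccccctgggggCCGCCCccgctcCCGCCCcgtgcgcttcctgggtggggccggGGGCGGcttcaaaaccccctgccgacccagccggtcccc

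TGFB2, chr1:218345216-218345335, plus strand: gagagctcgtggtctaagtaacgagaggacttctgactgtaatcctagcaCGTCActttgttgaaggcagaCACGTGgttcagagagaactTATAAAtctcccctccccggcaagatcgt

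TGFB3, chr14:75981996-75982115, minus strand: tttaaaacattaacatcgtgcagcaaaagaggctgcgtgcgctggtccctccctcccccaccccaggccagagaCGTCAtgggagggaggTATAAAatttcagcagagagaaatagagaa

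The shown TGFB1 bases were 80.8% G or C with 3 GC boxes and no TATA box. The shown TGFB2 bases were 49.2% G or C, with a TATA box that begins 29 bases before the start. The TGFB3 bases were 50.8% G or C, with a TATA box 30 bases before the start. In the full RefSeq windows, from 250 bases before the start to 50 after it, 2 of the 10 genes held TATAAA, and both were ligands, TGFB2 and TGFB3. Over all 35116 windows of that length, TATAAA was present in 11.5%. GGGCGG was held by 6 of the 10 windows, with 7 copies in TGFB1, 5 in SMAD3, 4 in SMAD2 and 2 each in TGFBR2, TGFBR3 and SMAD4, beside 44.95% of all windows. CGTCA was in TGFB2, TGFB3 and SMAD4, beside 24.6% of all, and CACGTG was in TGFB2 and SMAD3, beside 7.26% of all. CAGAC, the SMAD box that SMAD proteins can bind, had 2 copies in TGFB2, 2 in SMAD7, and 1 each in TGFBR1 and SMAD3, beside 45.3% of all windows. In TGFB2, 1 copy of CAGAC shares 1 base with the E-box, which was the single overlap between different motifs. The G and C content of the windows was highest in SMAD2 (84.0%) and lowest in SMAD7 (48.3%), and 7 of the 10 lay above the median of all windows, 58.7%. These matches describe letters in a window, and the gene tables do not measure promoter use.

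All 10 genes were expressed at 1 TPM or more in every library, a limit that 33.8% of all rows and 59.5% of the protein-coding rows reached. Of the 10, 7 had at least 10 TPM in every library, beside 20.7% of all rows and 40.4% of the protein-coding rows. The exceptions were SMAD4, TGFB2 and TGFB3. The genes were chosen with earlier results of these data known, so these counts beside the background are a description and not a test. The median of the 10 means was 17.8 TPM, beside 15.4 TPM over the 13753 genes whose mean reached 1 TPM, and 6 of the 10 lay above the latter.

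**Figure D1:**
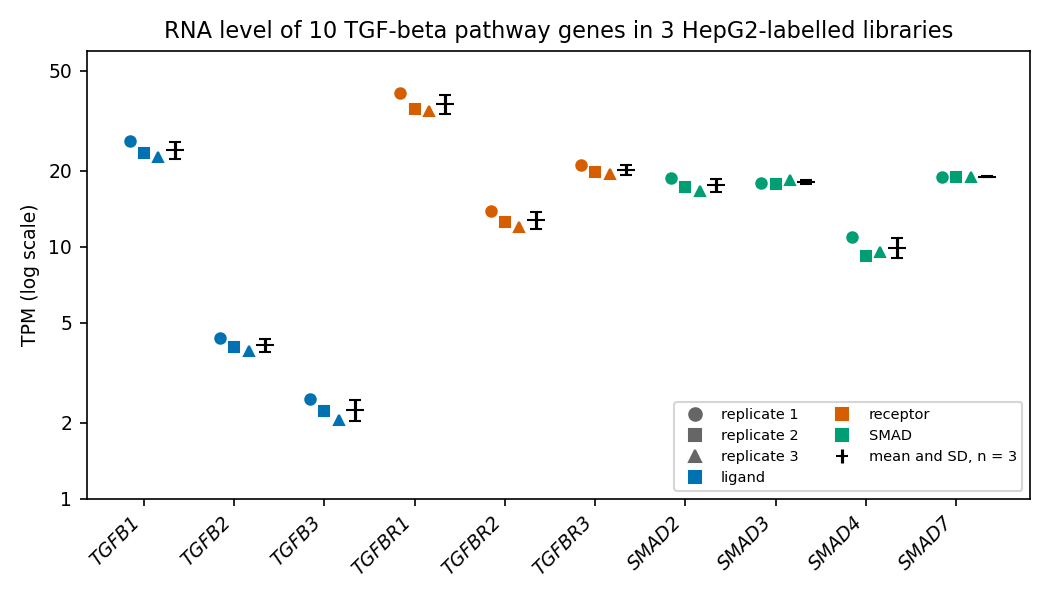
TPM (log scale) of each gene in replicates 1, 2 and 3, shown by marker shape and coloured by role, with the mean and SD (n = 3) to the right of the points. TGFBR1 was highest at a mean of 36.9 TPM and TGFB3 lowest at 2.25 TPM.

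Among the ligands, TGFB1 stood apart. TGFB1, the most widely expressed form in adult tissues, had 26.4, 23.6 and 22.7 TPM in replicates 1, 2 and 3 (24.2 ± 1.94, SD, n = 3). All 3 values lay far above those of the other ligand genes. The gene is on the minus strand of chromosome 19 (GRCh38, 41330323 to 41353883), and its MANE Select transcript in GENCODE v44, the reference form shared with RefSeq, has 7 exons and 2780 nt.

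TGFB2, a form with roles in heart and eye development that needs the co-receptor for strong receptor binding, had 4.34, 4.001 and 3.85 TPM (4.06 ± 0.249). TGFB3, known for its role in closure of the palate, had 2.48, 2.22 and 2.05 TPM (2.25 ± 0.213). The values of TGFB2 and TGFB3 did not overlap, and the lowest of the TGFB2 values was above the highest of TGFB3. TGFB2 is on the plus strand of chromosome 1 (218345284 to 218444619) and TGFB3 on the minus strand of chromosome 14 (75958061 to 75983011). Their MANE Select transcripts have 7 exons each, as does that of TGFB1, with coding sequences of 1245 nt for TGFB2, 1239 nt for TGFB3 and 1173 nt for TGFB1. The 3′ UTR is 3257 nt in TGFB2, 1090 nt in TGFB3 and 729 nt in TGFB1.

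On the log2(TPM + 1) scale, TGFB1 exceeded TGFB2 by 2.32 ± 0.04 and TGFB3 by 2.96 ± 0.02 (SD, n = 3), in 3 of 3 libraries. Without the pseudocount these were 5.96-fold and 10.8-fold. The spread between libraries was far smaller than either ratio. With 3 libraries, an exact permutation test that flips the signs of the ratios (two-sided) cannot give a p below 0.25, and both ratios were at that value (0.292 after Benjamini-Hochberg adjustment over the 7 ratios tested). In coverage, the ratios were 2.43 ± 0.03 and 3.41 ± 0.03 on the same log2 scale.

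Among the receptors, TGFBR1 had the highest TPM of all 10 genes. TGFBR1, the type I receptor kinase also called ALK5, had 40.7, 35.2 and 34.7 TPM (36.9 ± 3.35). TGFBR3, or betaglycan, a co-receptor without a kinase that presents ligand to the type II receptor, had 21.2, 19.8 and 19.5 TPM (20.2 ± 0.884). TGFBR2, the type II receptor kinase that binds the ligand, had 13.8, 12.5 and 11.9 TPM (12.8 ± 0.962). The 3 receptor genes did not overlap in TPM, and replicate 1 was the highest library for each.

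TGFBR1 is on the plus strand of chromosome 9 (99104038 to 99154192), and its MANE Select transcript has 9 exons and a 3′ UTR of 4887 nt. TGFBR2 is on the plus strand of chromosome 3 (30606472 to 30694142), with 7 exons. TGFBR3 is on the minus strand of chromosome 1 (91680343 to 91906002), with 17 exons, and at 225660 bp has the longest row of the 10.

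TGFBR2 was below TGFBR1 by a log2(TPM + 1) ratio of −1.46 ± 0.04, in 3 of 3 libraries, which is a TGFBR1 level 2.89 times that of TGFBR2. Against TGFBR3, the ratio of TGFBR2 was −0.62 ± 0.04, with TGFBR3 1.58 times as high in TPM. In coverage the same ratios were −1.77 ± 0.04 and −2.91 ± 0.01, so by coverage TGFBR3 was 8.01 times as high as TGFBR2. Both ratios kept their direction in coverage, and the second was much larger there. The order of TGFBR1 and TGFBR3, whose ratio was not among those taken, was reversed by coverage. TGFBR3 had a coverage of 117, 106 and 90.6 in replicates 1, 2 and 3, and TGFBR1 had 54.8, 46.3 and 40.3. The exact test gave p = 0.25 for each in TPM (adjusted 0.292).

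Among the SMADs, SMAD7, SMAD3 and SMAD2 had close TPM levels and SMAD4 was lower. SMAD7, the inhibitory SMAD, had 18.9, 19.0 and 19.0 TPM (18.96 ± 0.056). Its coefficient of variation of 0.296% was the smallest of the 10 genes in TPM as deposited. The median ratio of a gene's TPM to its geometric mean over the libraries was 1.034, 0.992 and 0.976 in replicates 1, 2 and 3. Coefficients of variation after scaling by these factors were not computed, so the place of SMAD7 may depend on the scaling. SMAD7 is on the minus strand of chromosome 18 (48919853 to 48950711), with 4 exons in its MANE Select transcript, the fewest of the 10.

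SMAD3, a receptor-activated SMAD that binds DNA directly, had 17.9, 17.7 and 18.4 TPM (18.0 ± 0.348). It was the only one of the 10 genes with its highest TPM in replicate 3. SMAD2, the other receptor-activated SMAD of this pathway, whose main form does not bind DNA directly, had 18.7, 17.3 and 16.7 TPM (17.6 ± 1.02). The values of SMAD2 and SMAD3 overlapped, with SMAD2 the higher in replicate 1 and SMAD3 the higher in replicates 2 and 3. SMAD3 is on the plus strand of chromosome 15 (67065602 to 67195195), with 9 exons.

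SMAD4, the common partner of the receptor-activated SMADs, had 10.9, 9.21 and 9.55 TPM (9.89 ± 0.905). All 3 of its values were below those of SMAD2, SMAD3 and SMAD7. SMAD4 (plus strand, 51030213 to 51085042) and SMAD2 (minus strand, 47833095 to 47931188) are on chromosome 18 with SMAD7, in the order SMAD2, SMAD7, SMAD4. The rows are 988664 bp apart between SMAD2 and SMAD7, and 2079501 bp apart between SMAD7 and SMAD4.

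The annotation of SMAD2 differs from the others in its 3′ end. Its MANE Select transcript in GENCODE v44 has 11 exons and 34626 nt, of which 32870 nt are 3′ UTR and 1404 nt are coding sequence. The deposited row of SMAD2 stops 24138 bp short of the 3′ end of the current RefSeq gene, while every other end of the 10 rows differed from RefSeq by at most 391 bp. The length by which the TPM of SMAD2 was scaled is not given. The part of the shorter row in the ratios of SMAD2 was not tested. SMAD4 has the next longest 3′ UTR at 6575 nt.

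The log2(TPM + 1) ratio of SMAD2 to SMAD3 was 0.06, −0.03 and −0.14 in replicates 1, 2 and 3, a mean of −0.04 ± 0.10. This was within the spread between libraries (exact permutation p = 0.75, adjusted 0.75). In coverage, the ratio was 2.00 ± 0.10, with SMAD2 4.32 times as high as SMAD3 and higher in 3 of 3 libraries. SMAD4 was below SMAD2 in TPM by a ratio of −0.77 ± 0.06, but above it in coverage at 0.52 ± 0.07, each in 3 of 3 libraries. SMAD7 was above SMAD4 by 0.88 ± 0.12 in TPM and 0.73 ± 0.13 in coverage. The exact p was 0.25 for each of the last 2 ratios in TPM (adjusted 0.292).

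**Figure D2:**
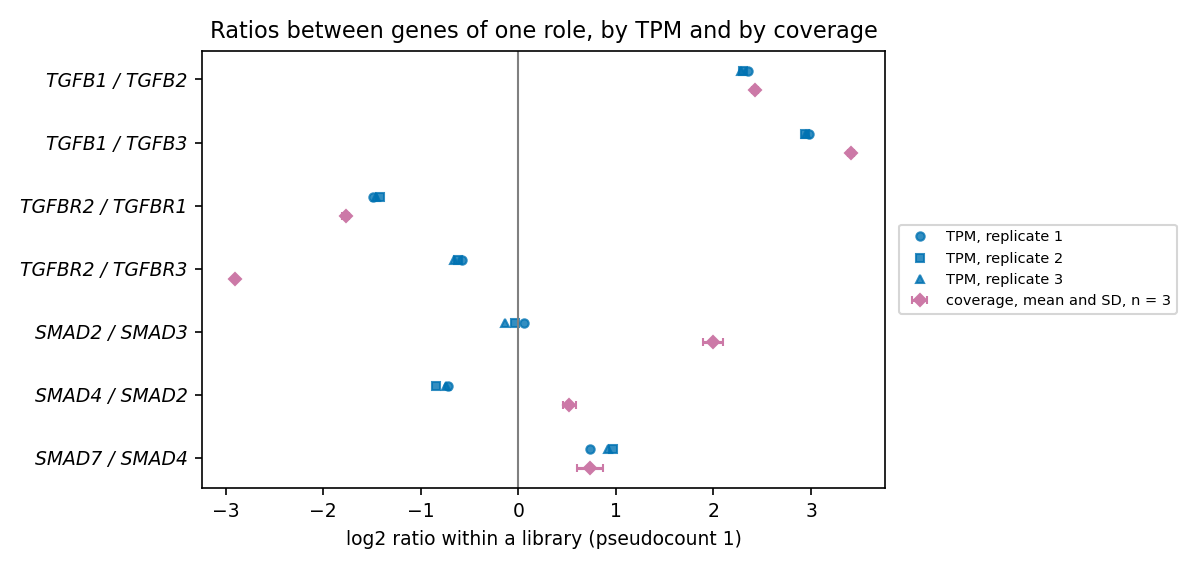
log2 ratio, with a pseudocount of 1, between genes of the same role within a library. Blue markers give TPM in each replicate and purple diamonds the mean and SD of coverage (n = 3). The SMAD2 to SMAD3 ratio lies near 0 in TPM (−0.04) and at 2.00 in coverage, and the SMAD4 to SMAD2 ratio is on opposite sides of 0.

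By mean TPM, the order of the genes was TGFBR1, TGFB1, TGFBR3, SMAD7, SMAD3, SMAD2, TGFBR2, SMAD4, TGFB2, TGFB3. In 8 of the 9 neighbouring pairs, the 3 values of the higher gene all lay above those of the lower. SMAD3 and SMAD2 did overlap and are not separated. Some separated neighbours were close: on the log2 scale without a pseudocount, TGFBR3 was above SMAD7 by 0.09 ± 0.07 and SMAD7 above SMAD3 by 0.07 ± 0.03. The widest step was between SMAD4 and TGFB2, at 1.28 ± 0.07.

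By mean coverage, the order was TGFB1, TGFBR3, SMAD7, SMAD4, TGFBR1, SMAD2, TGFB2, TGFBR2, TGFB3, SMAD3. The libraries did not overlap in 3 of the 9 neighbouring pairs, which are not all the same pairs as in the order by TPM, and coverage is not scaled for depth. All 9 pairs kept their order in 3 of 3 libraries. SMAD3 went from rank 5 in TPM to rank 10 in coverage, and TGFBR1 from rank 1 to rank 5. SMAD4 moved the other way, from rank 8 to rank 4.

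**Figure D3:**
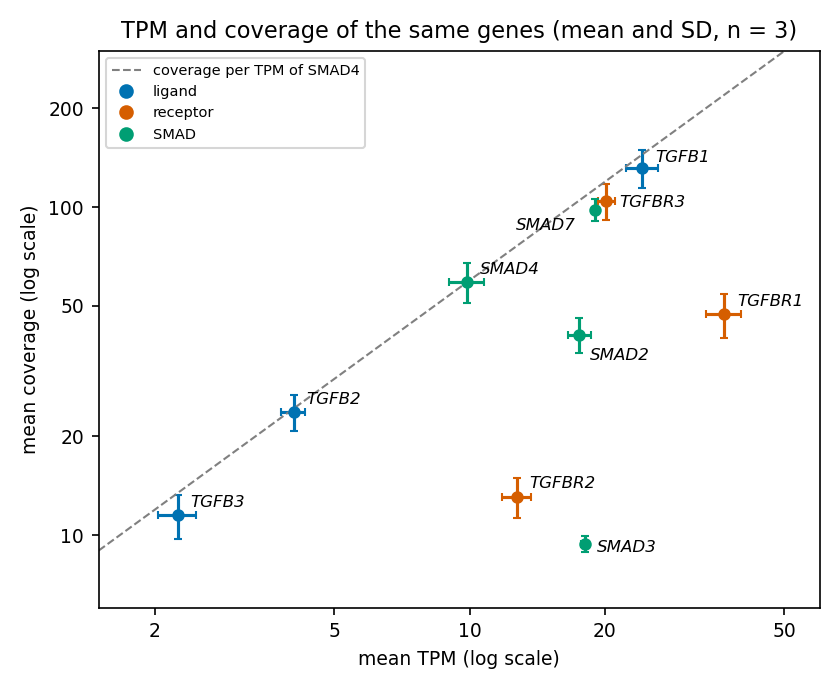
Mean coverage against mean TPM of the 10 genes, both on log scales, with SD bars (n = 3) and colours for the roles. The dashed line marks the coverage per TPM of SMAD4. The 3 ligands, TGFBR3, SMAD4 and SMAD7 lie on or near it, and SMAD2, TGFBR1, TGFBR2 and SMAD3 lie well below.

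The coverage of the 10 genes showed which values depend on the measure. SMAD3 had a coverage of 9.86, 9.54 and 8.86 in replicates 1, 2 and 3 (9.42 ± 0.513), the lowest of the 10, although its TPM was above those of 5 others. SMAD7, at nearly the same TPM, had 103, 102 and 89.7 (98.4 ± 7.54). The 3 values of SMAD7 were all far above those of SMAD3.

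The ratio of coverage to FPKM was expressed as a fraction of the highest such ratio in the same library. This fraction was at 1 for SMAD4 in every library, and had a mean of 0.975 for TGFB2, 0.910 for TGFB1, 0.869 for SMAD7, 0.868 for TGFBR3 and 0.855 for TGFB3. It was 0.389 for SMAD2, 0.214 for TGFBR1, 0.171 for TGFBR2 and 0.0877 for SMAD3. The 3 ligand genes were thus all high, while each of the other roles held both high and low genes. Over all genes whose mean reached 1 TPM, the median fraction was 0.805, and 28.4% were below 0.5, 13.6% below 0.25 and 4.66% below 0.1.

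For each of the low genes, the fraction hardly differed between libraries. It was 0.0878, 0.0876 and 0.0876 for SMAD3, and 0.1715, 0.1714 and 0.1711 for TGFBR2. TGFBR1 had 0.2146, 0.2143 and 0.2118. The gap between the measures was therefore nearly the same in all 3 libraries and is not part of the spread between them. RefSeq lists 29 transcripts for TGFBR1, 16 for TGFBR2, 11 for SMAD3 and 6 for SMAD2, beside 12 for TGFBR3, 6 for SMAD4, 5 for SMAD7, 4 for TGFB2, 3 for TGFB3 and 2 for TGFB1. The part of transcript number in the gap was not tested, and values per transcript were not analysed here.

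The percentile of a gene among the 13753 genes whose mean reached 1 TPM shifted accordingly. TGFB1 was at percentile 61.7 by TPM and 70.2 by coverage, TGFBR3 at 57.1 and 65.2, and SMAD7 at 55.5 and 63.9. SMAD4 rose from 38.5 to 52.4, TGFB2 from 20.8 to 33.2 and TGFB3 from 11.8 to 19.9. In the other direction, TGFBR1 went from 71.9 to 47.5, TGFBR2 from 45.1 to 22.1, SMAD2 from 53.5 to 44.5 and SMAD3 from 54.1 to 16.4. These percentiles depend on the genes compared: over all rows, with no limit on low values, TGFB3 was at percentile 69.2 by TPM and TGFB2 at 72.3.

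The spread of the 10 genes between libraries was set beside that of other genes. The largest range of log2(TPM + 1) over the 3 libraries was 0.23, for TGFBR1, and 0 of the 10 had a range above 1, beside 1.26% of the genes whose mean reached 1 TPM. Their median coefficient of variation, in TPM as deposited, was 6.84%, from 0.296% for SMAD7 to 9.47% for TGFB3. The median was 6.12% over the genes whose mean reached 1 TPM. It was 5.73% over genes whose mean reached 2 TPM, as that of all 10 did. Replicate 1 held the highest TPM of 8 of the 10 genes and replicate 3 the lowest of 7. The same lean was seen over all genes whose mean reached 1 TPM, of which 58.1% were highest in replicate 1 and 48.8% lowest in replicate 3.

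The other genes of the wider pathway were read in 6 lists, also chosen with earlier results of these data known. In each, the 4 highest genes by mean TPM and any gene listed at 0 are named, and the background is the protein-coding rows, of which 59.5% had at least 1 TPM and 40.4% at least 10 TPM in every library. Of 15 other ligands of the superfamily, 8 (53.3%) had at least 1 TPM and 2 (13.3%) at least 10 TPM in every library, with a median of 2.604 TPM. INHBB, a subunit of activin B, had 29.8 ± 1.72 TPM, above TGFB1. AMH, the anti-Müllerian hormone, had 10.98 ± 0.308 TPM, BMP6, which controls hepcidin in the liver, 9.65 ± 0.655 TPM, and GDF11 8.23 ± 0.439 TPM. LEFTY2, an inhibitor of NODAL, was listed at 0.

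Of 15 genes for latency and activation of the ligand, 9 (60%) had at least 1 TPM and 8 (53.3%) at least 10 TPM in every library, with a median of 22.2 TPM. FBN1, the fibrillin that holds latent complexes in the matrix, had 121 ± 7.68 TPM. ITGB5, an integrin subunit that takes part in activation, had 88.7 ± 1.65 TPM. FURIN, the protease that cuts the ligand precursors, had 63.5 ± 3.30 TPM, and LTBP1, which binds latent TGF-beta, 53.9 ± 1.17 TPM. The last was above the level of TGFB1 itself in every library.

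Of 14 other receptors and co-receptors, 10 (71.4%) had at least 1 TPM and 4 (28.6%) at least 10 TPM in every library, with a median of 2.38 TPM. ENG, or endoglin, a co-receptor related to TGFBR3, had 92.8, 79.7 and 79.7 TPM (84.1 ± 7.57), above every one of the 10 genes. BAMBI, a decoy receptor without a kinase, had 24.5 ± 1.81 TPM, and CD109, a co-receptor that dampens signalling, 16.0 ± 1.29 TPM. BMPR1A, a type I receptor for BMPs, had 19.7 ± 0.628 TPM with a coverage fraction of 0.049, lower than that of SMAD3. TDGF1 and ACVR1C, a NODAL co-receptor and the type I receptor ALK7, were listed at 0.

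The other SMADs serve BMP signals or inhibit. Of these 4 genes, 3 (75%) had at least 1 TPM and 2 (50%) at least 10 TPM in every library, with a median of 11.9 TPM. SMAD6, an inhibitory SMAD, had 28.2 ± 0.648 TPM, which was above SMAD7 in every library, but its coverage of 80.9, 75.9 and 67.4 was below that of SMAD7 in every library. SMAD5 had 15.6 ± 1.19 TPM and SMAD1 8.28 ± 0.720 TPM, and SMAD9 was at 0, 0.0732 and 0.0715 TPM. SMAD1, like SMAD3, had a low coverage fraction, at 0.0835.

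All 18 regulators of SMADs had at least 1 TPM in every library and 13 (72.2%) had at least 10 TPM, with a median of 14.9 TPM. STRAP, a receptor-binding protein that aids inhibition by SMAD7, had 227 ± 11.8 TPM. FKBP1A, which binds the type I receptor and keeps it inactive without ligand, had 205 ± 1.58 TPM. USP9X, a deubiquitinase that acts on SMAD4, had 79.4 ± 7.57 TPM, and TGIF1, a SMAD corepressor, 46.0 ± 1.27 TPM with a coverage fraction of 0.112.

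Of 21 genes known as targets of the pathway, 18 (85.7%) had at least 1 TPM and 12 (57.1%) at least 10 TPM in every library, with a median of 15.6 TPM. ID3 and ID1, inhibitors of helix-loop-helix factors that also respond to BMPs, had 225 ± 4.71 and 72.6 ± 4.56 TPM. TPM1, the gene of a tropomyosin, had 173 ± 6.32 TPM, with a coverage fraction of 0.123. CCN2, the connective tissue growth factor, had 68.0 ± 5.03 TPM. With 1 condition, these levels do not measure a response to TGF-beta. SKIL and PMEPA1 are in both the regulator and the target list, LTBP2 is in the latency and the target list, and DCN is in the latency and the mesenchymal list.

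**Figure D4:**
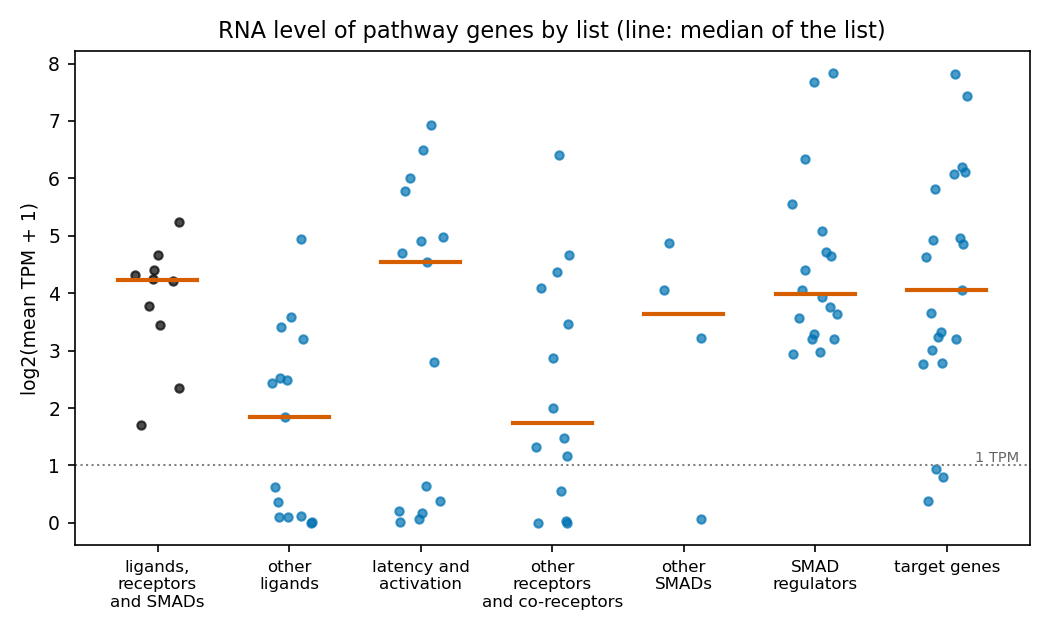
log2(mean TPM + 1) of each gene in the set of 10 (black) and in 6 lists of the wider pathway (blue), 1 point per gene, with the median of each list as a line. The dotted line marks 1 TPM. The lists of other ligands and of other receptors have the lowest medians, at 2.604 and 2.38 TPM, and all 18 SMAD regulators lie above the dotted line.

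Rows that overlap the 10 genes were low. TGFB2-AS1, on the minus strand of chromosome 1 (218344196 to 218345678), overlaps the first 395 bp of TGFB2 and had 0.730 ± 0.265 TPM. TGFB2-OT1 lies inside TGFB2 over 1370 bp and had 0.00509 TPM on average. LOC105377016 lies inside TGFBR2 over 11029 bp and was at 0, 0.162 and 0 TPM. LOC105372117, on the strand opposite SMAD4, shares 267 bp with it and had 0.548 ± 0.0776 TPM. The strand setting is not given in the sources used here, so reads of these pairs may not be told apart. TGFBR3L, a separate gene on chromosome 19 named for its likeness to TGFBR3, had 6.26 ± 0.962 TPM.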

How the data were processed

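RNA-seq was read in 3 libraries of 1 group. According to the submitters' processing notes, FastQC 0.11.8, Trim Galore 0.6.2, STAR 2.6.1a and StringTie were used, with GRCh38. Reads were 150 bp and paired. The annotation and strand setting are not given in the sources used here. The authors deposited a gene table per library with TPM and FPKM values. The coverage deposited by the authors is a signal that is not scaled for depth.

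Gene name, strand and coordinates were used to join the rows. This kept 43389 rows and left out 10 entries over the 3 tables. Of the kept rows, 39320 lie on assembled chromosomes or the mitochondrial genome, and 54 gene names were on more than 1 row. TPM was used as deposited, with mean and SD over 3 libraries. Ratios were taken within a library on log2(TPM + 1) and tested by flipping their signs in an exact permutation test (two-sided), with Benjamini-Hochberg adjustment over 7 ratios. The calculation of ranges was tested on simulated data.

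The genes and lists were chosen with earlier results of these data known. The genes named were the 10, all cell type markers, the 4 highest genes and those at 0 of each pathway list, and rows that overlap or share a name. A RefSeq biotype was matched for 35017 rows, of which 18743 were protein-coding. Promoters came from RefSeq (GRCh38.p14), taking the entry nearest the start of the MANE Select transcript in GENCODE v44. Python 3.11.15, numpy 2.4.6, pandas 2.3.3 and matplotlib 3.10.9 were used. Alternatives were other limits, pseudocounts, scalings and measures, and leaving out each replicate.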

Additional observations from a re-analysis of the deposited data

How the results depend on the processing

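With coverage in place of TPM, the number of neighbouring pairs in the order whose libraries did not overlap went from 8 to 3. The log2 ratio of SMAD2 to SMAD3 became 2.00 and that of SMAD4 to SMAD2 became 0.52, both with the opposite sign to TPM, and the other 5 ratios kept their direction. Leaving out each replicate in turn gave a SMAD2 to SMAD3 ratio between −0.083 and 0.013, and the sign turned without replicate 3. The cause was not tested. The other pseudocounts, FPKM and scaling without mitochondrially encoded genes cannot turn a direction within a library, so they are no check of the directions. Leaving out the mitochondrially encoded genes raised the mean of every one of the 10 genes by a factor of 1.25. With a limit of 10 TPM in place of 1 TPM, 7 of the 10 genes, 2 of the other ligands and 4 of the other receptors passed, beside 40.4% of the protein-coding rows. With 0.1 TPM all 10 genes passed, which follows from their passing 1 TPM, and the share of all rows at 0.1 TPM was not computed. No paired analysis was possible because only 1 group was sequenced. With no limit on low values, all 10 percentiles by TPM moved, for example from 11.8 to 69.2 for TGFB3 and from 20.8 to 72.3 for TGFB2, since the rows added are lower. Depth is unknown, so the counting error of low values could not be given.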
